A study of Mus musculus with 96 samples.

Results

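Astrocyte ribosome-bound RNA was compared between the striatum of 4 mice that received quinolinic acid (QA) and that of 4 mice that received vehicle. Both arms were adult C57BL/6 mice with an intrastriatal microinjection, QA at a labelled 30 nM or vehicle, 2 weeks before RNA extraction. Every mouse in both arms also carried the RiboTag AAV, a viral vector that makes striatal astrocytes express HA-tagged Rpl22, a protein of the large ribosomal subunit, for 3 weeks before extraction. The promoter of that vector is not given in the sources used here. The RNA pulled down with an antibody to HA is the immunoprecipitated (IP) fraction, and the RNA of the cleared lysate of the same mice is the input. The members are the 8 IP libraries that the labels assign to these arms, of 96 libraries in the series, and the labels give the cells as striatal astrocytes.

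QA is a breakdown product of tryptophan that activates NMDA-type glutamate receptors and, injected into the striatum, kills the GABAergic medium spiny neurons, while cholinergic and nitric oxide synthase interneurons are known to be less sensitive. Astrocytes near such a lesion enlarge, build up intermediate filaments and change their secreted proteins, a state called reactive gliosis. The submitters used QA to ablate these neurons, and the comparison asks what RNA the ribosomes of striatal astrocytes carry after that injection. Ribosome pull-down reads the RNA on tagged ribosomes, so RNA from other cells in it comes either from tagged ribosomes in those cells or from carry-over.

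The 8 IP libraries held 55898469 to 68647854 reads assigned to genes, recovered from the deposited FPKM. The arms lay apart on the first principal component of the tested genes, which carried 84.7% of the variance. QA replicate 3 stood apart from the other QA libraries on the second component, with a score of 27.9 against -15.1, -14.6 and -2.001, on a component that carried 5.18% of the variance. By Xist and Y-linked genes, the 4 vehicle mice and QA replicate 1 were female and the other 3 QA mice were male, so the treatment and sex cannot be told apart except within the female mice, where 4309 genes were called higher and 4574 lower with 1 QA mouse, assumed to vary like the others. With sex as a covariate over all 8 mice, 3892 genes were higher and 3909 lower. The effect of QA in that fit is again QA replicate 1 against the vehicle mice, because no vehicle mouse was male. The 3 male QA mice add only to the estimate of spread. Calls kept or lost with sex as a covariate thus rest on 1 QA mouse. Nothing in the labels says that the mice came from separate litters, so p-values measure the spread between these samples. The labels name the molecule as polyA RNA while the library kit removes ribosomal RNA, and which applied was not settled.

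Most of the transcriptome that could be tested differed between the arms. Of 13821 genes with at least 0.5 FPKM (fragments per kilobase of transcript, scaled to the mapped reads of the library) in at least 4 libraries, 5199 were higher and 5046 lower after QA at an adjusted p under 0.05 (limma on log2 of scaled FPKM, Benjamini-Hochberg). These are 37.6% and 36.5% of the tested genes, together 74.1%, and the members of any gene list below are read against those shares. At least 2-fold, 1442 genes (10.4%) were higher and 1455 (10.5%) lower, and in 69.8% of tested genes the 4 QA values and the 4 vehicle values did not overlap. The median log2 change over all tested genes was 0.01. Of the tested genes, 288 reached 0.5 FPKM in QA mice but in no vehicle mouse and 104 in vehicle mice but in no QA mouse, so the filter itself fixed their direction. Such genes are counted in the lists: of those called higher, 3 in the cell cycle list, 2 each in the microglial, chemokine, interleukin-6, TGF-beta and synapse-forming lists and 1 each in the phagocyte, kynurenine, calcium, matrix, complement and injury factor lists, and of those called lower, 2 in the TGF-beta list and 1 each in the YAP and trophic factor lists. These counts leave out genes that reached 0.5 FPKM in all mice of one arm and in few of the other. The filter favoured a direction for those genes too, Clcf1, Cntf and Il6 among them.

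Genes that the pull-down enriches moved mostly upward. In the 20 control mice of the other 5 experiments of the series, which share no library with the comparison, 1915 of the genes tested here were at least 2-fold higher in IP than in input. Of these, 1431 rose and 211 fell after QA, with a median log2 change of 0.66. Of the 1218 genes at least 2-fold lower in IP than in input, 295 rose and 606 fell, with a median of -0.40. The 10614 genes between these limits had a median of -0.05, and 74 tested genes had no enrichment value. Without scaling beyond FPKM, the enriched and depleted classes of the 15504 genes examined held 1533 and 2757 genes in place of 1957 and 2123, the median of all genes moving by -0.21 on the log2 scale.

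The labelled cell type was checked against marker lists. All 20 listed astrocyte markers were at least 2-fold enriched in IP over input in those control mice, among them the water channel Aqp4 and the folate enzyme Aldh1l1, with enrichments of 2.87 and 2.79 on the log2 scale. After QA, the summed astrocyte marker FPKM in IP was 110%, 109%, 117% and 106% of the vehicle mean in the 4 QA mice, and in input 165%, 156%, 181% and 151%. Of the 20 markers 11 were called higher in IP, 3 of them at least 2-fold, and 2 lower. Their log2 changes ran from -0.74 to 1.49, with a median of 0.34. Rpl22, which the vector also carries, was not called in IP, at 649, 701, 516 and 474 FPKM after vehicle and 888, 573.1, 1419.8 and 846 after QA (adjusted p = 0.051), and was called without QA replicate 2 (0.0061) or vehicle replicate 2 (0.048). All 18 microglial and all 13 endothelial markers were at least 2-fold depleted by the pull-down, as were 16 of 18 medium spiny neuron markers. Only 1 of 12 oligodendrocyte, 1 of 12 pan-neuronal and 0 of 9 oligodendrocyte precursor markers were depleted to that degree. Of 10 interneuron markers, however, 9 were at least 2-fold enriched by it, including Nos1 at 3.24, Chat at 2.37 and Slc5a7 at 2.32 on the log2 scale, so the IP fraction was not free of neuronal RNA under these labels. Of 9 ependymal markers 8 were matched, and all 8 were enriched to that degree and called higher after QA. Their summed FPKM in IP was 216%, 211%, 205% and 262% of the vehicle mean in the 4 QA mice. In bulk samples, fewer cells of a type and less RNA per cell cannot be told apart.

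**Figure D1:**
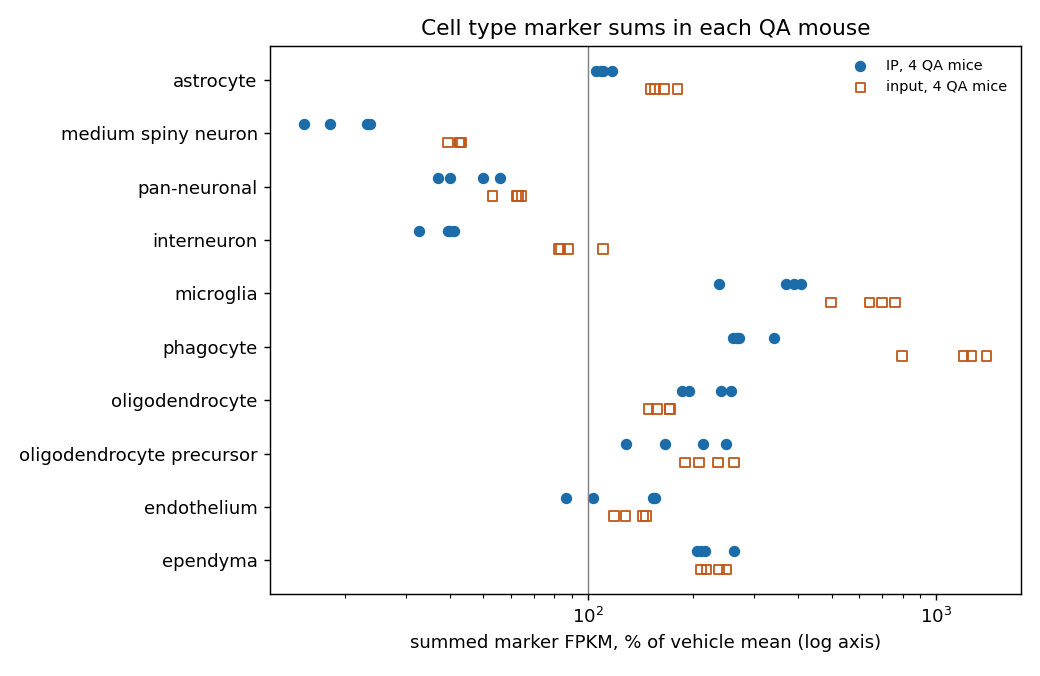
Summed FPKM of 10 cell type marker lists in each QA mouse, as a percentage of the mean of the 4 vehicle mice, on a log axis, for IP (filled circles) and input (open squares). Medium spiny neuron markers lie between 15.3% and 23.6% in IP and between 39.6% and 43.2% in input, interneuron markers lie between 32.7% and 41.3% in IP and between 82.4% and 110% in input, and microglial and phagocyte markers lie far above 100% in both.

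Medium spiny neuron genes fell without exception. All 18 listed genes were called lower, 17 of them at least 2-fold, with a median log2 change of -2.24. The summed FPKM of the list was 23.6%, 23.2%, 15.3% and 18.1% of the vehicle mean in the 4 QA mice. Drd1a, the dopamine D1 receptor of the direct pathway, was at 77.6, 78.8, 81.4 and 81.5 FPKM in the vehicle mice and at 18.7, 18.7, 10.7 and 12.2 in the QA mice, and fell by 2.45 ± 0.16 on the log2 scale (SE). Drd2, the dopamine D2 receptor of the indirect pathway, stood at 46.9 ± 1.85 FPKM after vehicle and 9.18 ± 1.51 after QA (mean ± SD, n = 4 each), and in neither gene did the arms overlap. Of the 12 pan-neuronal genes 10 were lower, with a median of -1.53, including Snap25, a protein of synaptic vesicle fusion, and Rbfox3, the neuronal nuclear antigen NeuN. Stmn2, a tubulin-binding protein of growing axons, was the 1 listed pan-neuronal gene that rose, from 53.9, 53.9, 56.4 and 57.1 FPKM to 91.7, 74.3, 70.8 and 73.1.

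Interneuron genes also fell in the pull-down, by more than in the lysate of the same mice. All 10 were lower in IP, 9 of them at least 2-fold, with a median log2 change of -1.79, while in input 7 were lower and 1 higher, with a median of -0.55. The summed list stood at 40.0%, 39.5%, 32.7% and 41.3% of the vehicle mean in IP, and at 83.2%, 87.4%, 110% and 82.4% in input. Nos1, the neuronal nitric oxide synthase of one interneuron class, read 58.9, 62.6, 58.4 and 66.3 FPKM after vehicle and 24.8, 21.4, 14.1 and 21.4 after QA in IP. Its input mean went from 8.87 to 8.21 FPKM, and the change in IP was lower than that in input by 1.40 ± 0.13 on the log2 scale (SE, adjusted p = 3.6e-05, limma with the mouse as a block). Chat, the enzyme that makes acetylcholine, and Slc5a7, the choline transporter that feeds it, fell in IP by 2.05 ± 0.08 and 2.09 ± 0.09, against 0.93 and 0.53 in input. For all 10 interneuron genes the change was more downward in IP than in input, where 28.3% of all 15151 genes tested had such a call. The parts of cell number, of the virus in these cells and of carry-over in this difference were not tested.

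The 12 largest falls among genes of the IP-enriched class included several genes of cholinergic interneurons, such as Slc17a8, Slc5a7 and Chat. Also among the 12 were Tacr3, Nrarp, Kirrel2, Cpne4, Crabp2, Slc10a4 and Kit. The 12 fell by between 1.98 and 2.71 on the log2 scale. Slc17a8, the vesicular glutamate transporter VGLUT3 of cholinergic interneurons, stood at 15.6, 17.0, 16.05 and 16.1 FPKM after vehicle and at 2.94, 2.62, 1.68 and 2.54 after QA. Tacr3, the neurokinin B receptor, fell from 9.79 ± 0.439 to 1.67 ± 0.182 FPKM. In input the same 12 genes fell by between 0.42 (Cpne4) and 1.67 (Kirrel2) on the log2 scale, and all 12 changes were more downward in IP. The 12 were picked by their fall in IP, and the difference uses the same IP values. That choice leans the difference downward, so the count is not a separate result.

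**Figure D2:**
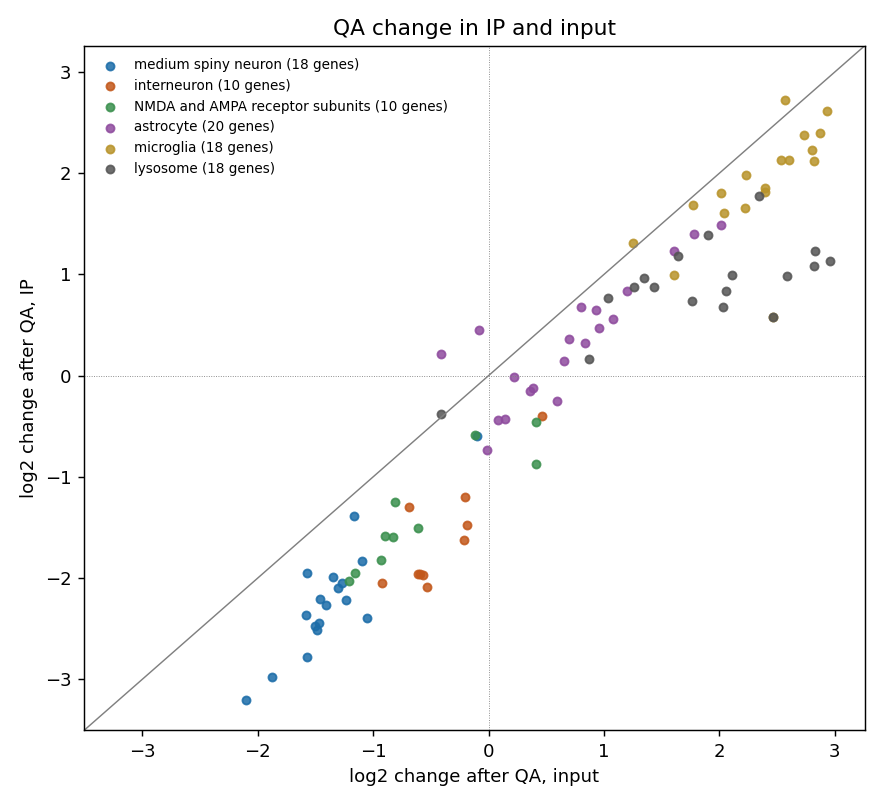
Log2 change after QA in IP (vertical) against that in input (horizontal) for the members of 6 lists, one point per gene, with the line of equal change. All 18 medium spiny neuron, 10 interneuron and 10 glutamate receptor genes lie below the line, and the 18 microglial genes lie above 0 on both axes.

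Glutamate receptor subunits followed the neuronal genes. All 10 NMDA and AMPA receptor subunits were lower in IP, 7 of them at least 2-fold, with a median of -1.54. Grin1, the obligatory NMDA subunit and thus part of the receptor that QA acts on, was at 82.9, 76.5, 77.8 and 79.7 FPKM after vehicle and at 23.4, 27.6, 14.9 and 14.8 after QA. Grin2c, the NMDA subunit that astrocytes are known to express and 1 of 3 subunits enriched in IP, fell less, from 30.7 ± 1.77 to 20.5 ± 1.94 FPKM, or 0.59 ± 0.07 on the log2 scale. Gria2, the AMPA subunit that limits calcium entry, fell by 1.95 ± 0.18.

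The machinery that clears and recycles glutamate did not move as a block. Of 13 listed genes 4 rose (2 with sex as a covariate) and 6 fell, with a median of -0.25. Slc1a2 (GLT-1), the main astrocyte glutamate transporter, was at 1088, 1340.0, 1300.4 and 1234 FPKM after vehicle and at 1236, 1047, 967 and 957 after QA, with overlapping arms and no call (log2 change -0.25, 95% interval -0.49 to -0.01, adjusted p = 0.058). It was called lower without QA replicate 1 (adjusted p = 0.017) or without vehicle replicate 1 (0.027). Slc1a3 (GLAST), the second astrocyte transporter, rose from 702 ± 45.1 to 883 ± 42.2 FPKM, and glutamine synthetase, Glul, was not called at 1826 ± 181 and 2120.2 ± 254 FPKM. Slc38a3, the transporter that exports glutamine, rose from 80.5, 88.4, 84.6 and 80.4 to 156, 174, 131 and 141 FPKM without overlap. The falls included Got1, an aspartate aminotransferase, by 1.501 ± 0.11 and Grm5, the metabotropic receptor mGluR5, by 1.78 ± 0.10 on the log2 scale. Neither gene belonged to the IP-enriched class.

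Of the 10 genes of GABA uptake and breakdown, 7 fell and 2 rose. The GABA-making enzymes Gad1 and Gad2, which mark GABAergic neurons, fell by 2.12 ± 0.08 and 1.53 ± 0.10. The astrocyte transporter Slc6a11 (GAT-3) was not called (75.1 ± 4.25 against 64.6 ± 9.19 FPKM, adjusted p = 0.054) and was called lower without QA replicate 3 (6.5e-04) and under several scalings. Aldh1a1, an aldehyde dehydrogenase of an alternative route to GABA, rose from 153 ± 17.3 to 274 ± 33.0 FPKM.

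Potassium, water and endfoot genes mostly rose: 12 of 16 were called higher and 2 lower (1 with sex as a covariate), with a median of 0.52. Atp1b2, the glial subunit of the sodium pump, stood at 62.4, 61.0, 70.2 and 70.1 FPKM after vehicle and at 207, 147, 161 and 188 after QA. Kcnj16, partner subunit of the inward rectifier potassium channel Kir4.1, rose by 0.72 ± 0.17 on the log2 scale, a call lost with sex as a covariate. Of 6 connexin and pannexin genes 3 rose and 2 fell, 1 of the 2 at least 2-fold, with log2 changes from -1.435 to 1.13. Among them, the astrocyte connexins Gja1 and Gjb2 rose by 0.47 ± 0.07 and 1.13 ± 0.09, Gjb6 was not called (adjusted p = 0.38), and the pannexin Panx1 fell by 0.59 ± 0.06. Of 20 tested calcium and G protein-coupled receptor genes, 12 rose and 4 fell. S1pr3, a sphingosine phosphate receptor, went from 5.60, 4.68, 4.83 and 6.06 FPKM to 29.7, 28.1, 23.8 and 38.0, well clear of the vehicle mice. Itpr2, the inositol trisphosphate receptor that releases calcium in astrocytes, rose by 0.84 ± 0.06, while its neuronal relative Itpr1 and the cannabinoid receptor Cnr1 fell by 2.17 ± 0.20 and 2.58 ± 0.16.

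Genes of energy metabolism moved in both directions. Of 20 glycolysis and lactate genes, 12 were lower (6 with sex as a covariate) and 6 higher, with a median of -0.29. The lower genes included Pkm, pyruvate kinase, at 671, 632, 635 and 627 FPKM after vehicle and 427, 241, 391 and 377 after QA, a call lost with sex as a covariate, and Ldha, lactate dehydrogenase A, which fell by 0.65 ± 0.06 on the log2 scale. Slc16a1, the lactate transporter MCT1, rose from 22.7, 21.6, 21.4 and 20.8 to 54.8, 55.0, 48.4 and 55.5 FPKM. Hk2, an inducible hexokinase that the pull-down depletes, rose from 0.758 ± 0.143 to 3.10 ± 0.533 FPKM in IP and from 2.50 to 14.4 FPKM in input. Glycogen genes leaned upward, with 6 of 10 higher and 3 lower. Ppp1r3c, which targets phosphatase to glycogen, went from 96.7, 104, 101 and 100.1 FPKM to 151, 149, 175 and 161. Gys1, glycogen synthase, and Gyg, the glycogenin primer, rose by 0.58 ± 0.07 and 0.69 ± 0.05.

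Genes of lipid carriers mostly rose, while more genes of sterol and fatty acid synthesis fell than rose. Of 16 genes of lipoproteins and lipid transport 13 were higher, 2 lower, with a median of 0.59, against 3 higher and 11 lower of 20 genes of sterol and fatty acid synthesis, with a median of -0.32. Of those 11, 1 fell at least 2-fold. The summed IP FPKM of the synthesis list was 94.6%, 95.9%, 104% and 109% of the vehicle mean in the 4 QA mice. Apod, a lipocalin-type lipid carrier of glia, read 446, 392, 305 and 378 FPKM after vehicle and 2005, 2054, 4629 and 2578 after QA, with QA replicate 3 the highest. Apoe, the main brain apolipoprotein, rose little in IP, by 0.36 ± 0.14 (adjusted p = 0.042), against 2.05 in input. Its IP call was lost with sex as a covariate and without any single vehicle mouse (adjusted p from 0.056 without replicate 2 to 0.11 without replicate 3). Msmo1, a sterol oxidase, fell from 114, 105, 109 and 108 to 46.5, 58.8, 49.9 and 65.6 FPKM. Srebf1, the transcription factor of fatty acid synthesis, rose by 0.95 ± 0.07, whereas Srebf2, that of sterol synthesis, was not called (adjusted p = 0.22; 0.0089 and higher without QA replicate 3). Lpl, which frees fatty acids from lipoproteins, fell from 9.43 ± 0.531 to 1.99 ± 0.451 FPKM in IP, and its input mean was 16.001 FPKM after vehicle and 15.99 after QA.

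The enzymes that make and break down QA itself were at low levels in IP. Of 12 kynurenine pathway genes only 6 passed the filter. Qprt, which consumes QA, was at 0.536, 0.499, 0.573 and 0.627 FPKM after vehicle and at 0.732, 1.23, 0.714 and 0.767 after QA, a rise that passed the test (adjusted p = 0.025). The call was lost with sex as a covariate and without QA replicate 2 (adjusted p = 0.059), vehicle replicate 1 (0.059) or vehicle replicate 2 (0.067). Without QA replicate 2, 1 of 5 listed genes tested was called higher, against 3 of 6 with it, the untested gene being among those 3. Kmo, the branch-point enzyme towards QA, was not tested, with all 8 values at 0.118 FPKM or less. Ido1, which opens the pathway from tryptophan, fell from 5.06 ± 0.662 to 1.75 ± 0.714 FPKM and was a gene that the pull-down depletes.

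Cytoskeletal genes were mostly higher. Of 20 listed genes 16 rose, 12 of them at least 2-fold, and 2 fell, with a median of 1.21. Gfap, the main intermediate filament of reactive astrocytes, was at 669, 587, 607 and 643 FPKM after vehicle and 3099, 2993, 4406 and 3886 after QA, a rise of 5.65-fold. Nes, the progenitor filament nestin, went from 2.24 ± 0.378 to 15.6 ± 3.19 FPKM, Flnc, the actin crosslinker filamin C, from 3.76 ± 0.329 to 34.9 ± 7.42, and Tuba1c, an alpha tubulin, from 0.743 ± 0.235 to 6.58 ± 0.364. Tpm1, a tropomyosin, and Actn1, an actinin, fell by 1.30 ± 0.10 and 0.85 ± 0.08 on the log2 scale. Of 16 genes of annexins and S100 proteins, 2 families that bind calcium, 14 rose and none was called lower, with a median of 1.22. Anxa2 read 15.99, 15.6, 15.3 and 18.4 FPKM after vehicle and 98.1, 93.7, 112 and 115 after QA, and in both fractions the rise was near 2.6 on the log2 scale.

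**Figure D3:**
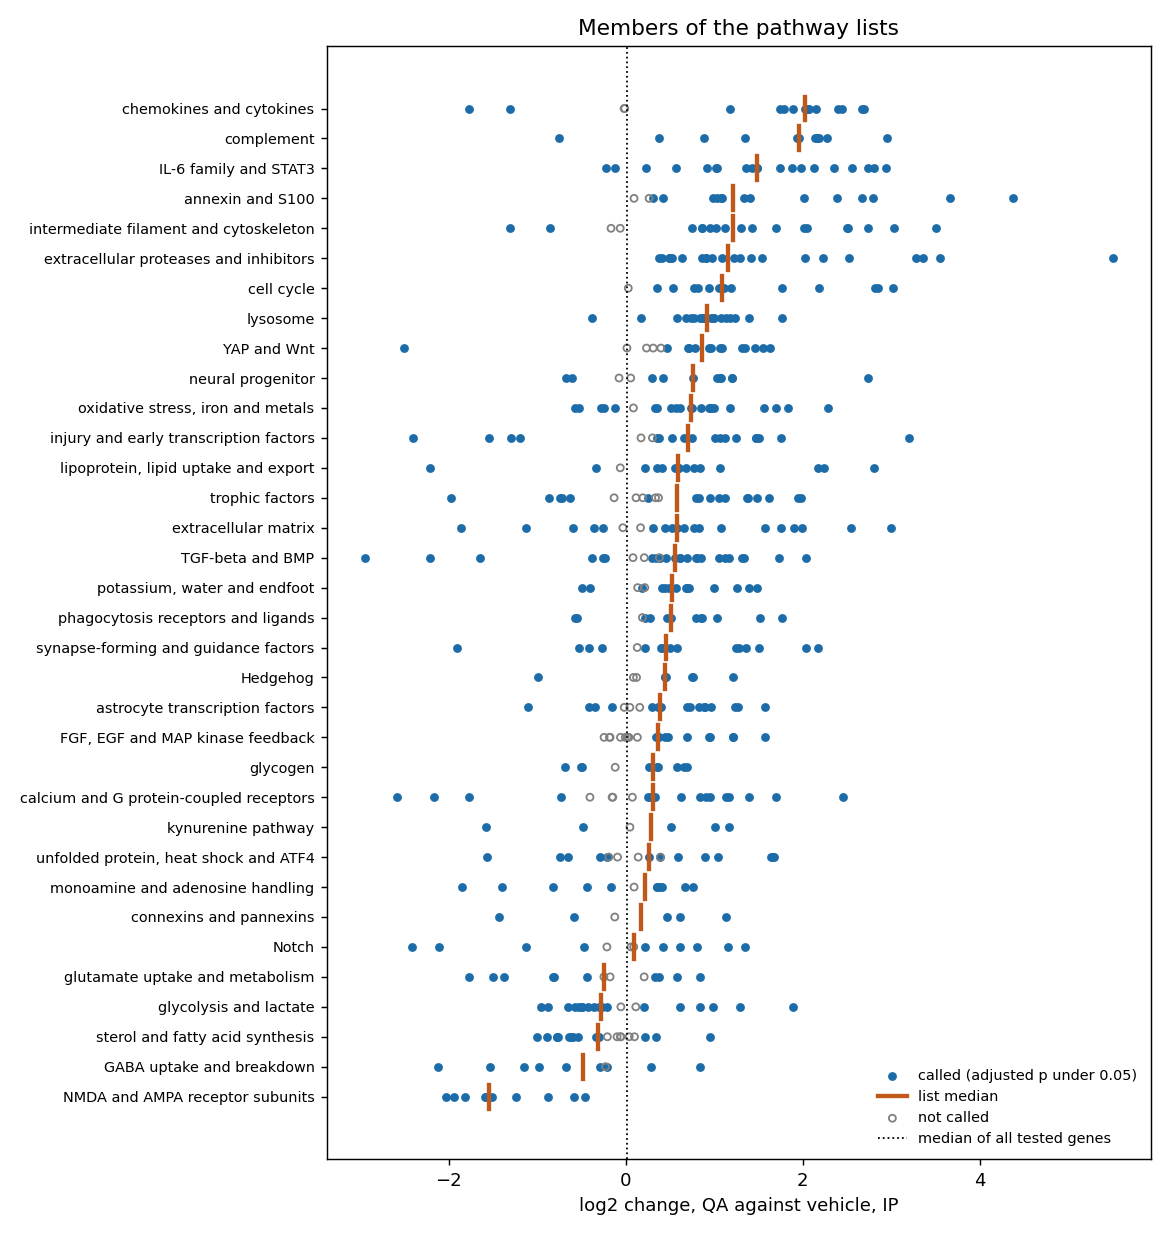
Log2 change after QA in IP for every tested member of the 34 pathway lists, one point per gene (filled where called), with a bar at the list median and a dotted line at the median of all tested genes, 0.01. Lists are ordered by median, from chemokines and cytokines at 2.02 down to NMDA and AMPA receptor subunits at -1.54.

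Extracellular protease genes were all higher and matrix genes mixed. All 22 listed extracellular proteases and inhibitors were called higher, 12 of them at least 2-fold, with a median of 1.16. Serpina3n, a secreted serine protease inhibitor, was at 82.8, 75.9, 62.9 and 82.1 FPKM after vehicle and at 586, 623, 1071 and 942 after QA. Klk6, a kallikrein protease, rose from 59.2 ± 7.14 to 599 ± 214 FPKM, A2m, a broad protease trap, from 6.15 ± 0.309 to 62.8 ± 17.3, and Mmp14, a membrane metalloprotease, from 9.09 ± 0.412 to 17.3 ± 2.92. Of 21 matrix genes 14 rose and 5 fell (3 with sex as a covariate), with a median of 0.57. Col12a1, a fibril-associated collagen, went from 0.202, 0.178, 0.193 and 0.289 FPKM to 2.38, 2.16, 2.12 and 3.09, passing the filter through the QA mice alone, and Tnc, tenascin C, from 5.54 ± 0.451 to 11.9 ± 1.64. Lamb1, a laminin chain, fell from 11.9 ± 0.705 to 3.29 ± 0.745 FPKM. Of 16 synapse-forming and guidance factors 11 rose and 4 fell (2 with sex as a covariate or in female mice only). Thbs2, a thrombospondin that promotes synapse formation, rose from 1.86 ± 0.238 to 8.72 ± 0.507 FPKM and Chrdl1, which matures AMPA receptor synapses, from 8.39, 10.3, 9.79 and 8.94 to 29.0, 32.5, 22.1 and 25.0. Sparcl1 (hevin), another synapse organiser, fell from 1996 ± 157 to 1397 ± 212 FPKM.

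Genes of interleukin-6 family signalling were mostly higher. These cytokines act through the shared receptor chain gp130 and the transcription factor STAT3, a known driver of astrocyte reactivity. Of 20 tested genes 18 rose, 15 of them at least 2-fold, and 2 fell, with a median of 1.48. With sex as a covariate, in female mice only or without QA replicate 4 none of the list was called lower, and 1 was without QA replicate 2 or 3 or without vehicle replicate 2 or 3. Among the ligands, Clcf1 went from 0.457, 0.321, 0.613 and 0.399 FPKM to 2.69, 3.42, 4.43 and 4.39, and Cntf and Lif reached 1.92 ± 0.290 and 1.84 ± 0.409 FPKM from 0.413 ± 0.110 and 0.586 ± 0.110. The interleukin-6 gene itself, Il6, fell from 1.26, 1.31, 1.00 and 1.25 to 0.411, 0.298, 0.401 and 0.641 FPKM. Clcf1 and Cntf each reached the 0.5 FPKM of the filter in only 1 vehicle mouse, and Il6 in only 1 QA mouse. The other arm thus let each of these genes pass. Stat3 itself rose from 44.2 ± 2.95 to 83.8 ± 8.08 FPKM. Il6 is counted in the list of chemokines and cytokines. Rpl22, Grin2c, Glul, Cntf, Lif, Il6, Socs3 and Igf1 fall outside the rule for named genes and were chosen after their values were seen.

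The promoters of this list were searched for the letters that STAT factors and the injury-induced AP-1 (Fos and Jun) factors bind. RefSeq promoter windows of 300 bases (250 before the start and 50 after it, GRCm38.p6) matched 16 of the 20 tested members. The STAT letters TTCNNNGAA, which read the same on both strands, were in 1 of the 16, and the AP-1 letters TGANTCA, searched on both strands, were in 3. Over all 16807 genes of the files with a window the shares were 9.2% and 8.4%, and among tested genes they were 8.3% and 6.2%. For genes called higher by at least 2-fold they were 12.2% for STAT and 11.5% for AP-1, against 8.1% and 4.8% of the genes not called. Over all genes called higher they were 8.8% and 7.7%, and over all genes called lower 7.9% and 5.4%. Genes lower by at least 2-fold were not examined apart. The 4 windows that hold the letters are shown, all of genes that rose, with the matched letters in capitals, the AP-1 windows having been added after the search.
Socs3 (STAT letters; chr11:117969317-117969616, minus strand): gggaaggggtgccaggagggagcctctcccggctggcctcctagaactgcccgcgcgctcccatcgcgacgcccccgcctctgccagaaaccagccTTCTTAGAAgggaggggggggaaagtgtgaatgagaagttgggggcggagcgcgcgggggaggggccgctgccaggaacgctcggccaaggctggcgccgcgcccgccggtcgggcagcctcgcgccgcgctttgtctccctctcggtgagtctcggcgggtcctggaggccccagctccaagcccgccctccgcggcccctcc
Osmr (AP-1 letters; chr15:6874264-6874563, minus strand): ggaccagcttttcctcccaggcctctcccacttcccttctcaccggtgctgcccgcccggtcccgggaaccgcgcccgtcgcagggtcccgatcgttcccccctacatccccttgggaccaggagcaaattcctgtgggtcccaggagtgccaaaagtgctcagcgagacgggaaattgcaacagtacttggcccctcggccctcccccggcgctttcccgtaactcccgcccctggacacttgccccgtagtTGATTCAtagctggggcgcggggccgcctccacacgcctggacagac
Cntf (AP-1 letters; chr19:12765583-12765882, minus strand): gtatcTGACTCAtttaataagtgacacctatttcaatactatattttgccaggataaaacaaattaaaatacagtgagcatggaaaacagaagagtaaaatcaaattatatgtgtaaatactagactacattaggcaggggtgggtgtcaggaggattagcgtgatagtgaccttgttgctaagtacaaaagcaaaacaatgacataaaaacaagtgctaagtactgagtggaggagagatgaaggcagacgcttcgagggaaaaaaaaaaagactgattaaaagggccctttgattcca
Lif (AP-1 letters; chr11:4257318-4257617, plus strand): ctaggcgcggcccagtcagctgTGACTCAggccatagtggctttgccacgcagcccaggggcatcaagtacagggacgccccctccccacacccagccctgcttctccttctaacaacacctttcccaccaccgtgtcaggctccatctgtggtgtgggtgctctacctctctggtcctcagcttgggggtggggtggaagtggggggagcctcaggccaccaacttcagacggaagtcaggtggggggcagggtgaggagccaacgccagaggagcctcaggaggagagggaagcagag
The match in Socs3 begins at base 97 of its window, and those in Osmr, Cntf and Lif at bases 254, 6 and 23, with the start of transcription after base 250. Socs3, the feedback inhibitor of this pathway, and Osmr, the oncostatin M receptor, had risen by 2.73 ± 0.17 and 2.56 ± 0.06 on the log2 scale. A match is a description of letters and is not a measured binding site.

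Growth and developmental pathways moved in mixed directions. In the Notch pathway, through which neighbouring cells signal by contact, 6 of 13 genes rose and 4 fell. The receptors Notch1 and Notch3 rose, from 12.02 ± 0.590 to 27.2 ± 3.83 FPKM and from 3.94 ± 0.191 to 10.2 ± 0.999. The targets Hes5 and Nrarp fell, Hes5 from 5.57, 8.01, 9.13 and 7.71 FPKM to 1.98, 1.79, 1.66 and 1.31, and Nrarp from 19.6, 20.8, 21.8 and 15.5 to 4.33, 3.51, 3.21 and 3.22. Of 9 Hedgehog genes 6 rose and 1 fell: the transcription factor Gli2 rose by 1.21 ± 0.12 on the log2 scale, the decoy receptor Hhip fell by 0.99 ± 0.12, and the receptor and target Ptch1 was not called (adjusted p = 0.086; 0.032 and higher without QA replicate 2). Of 27 TGF-beta and BMP genes 18 rose and 6 fell. Of the 6, 2 passed the filter through the vehicle mice alone and were untested whenever a vehicle mouse was left out. Without vehicle replicate 1, 25 were tested and 4 called lower. Without vehicle replicate 2, 3 or 4, 25 were tested and 3 called lower, a further gene having lost its call. In this list Tgfbr2, the type 2 receptor, went from 2.37 ± 0.222 to 5.50 ± 0.856 FPKM and Id3, a BMP target, from 52.8 ± 4.61 to 95.7 ± 4.95. Tgfbr2 is a gene that the pull-down depletes, and in input it went from 8.01 to 48.2 FPKM.

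Of 19 FGF, EGF and MAP kinase feedback genes 11 rose and none was called lower. With sex as a covariate 8 were higher and 1 lower, in female mice only 10 and 2, and 1 was called lower without QA replicate 2 or 3 or vehicle replicate 1. Hbegf, a ligand of the EGF receptor, was at 19.4, 21.5, 21.4 and 18.02 FPKM after vehicle and 59.0, 57.1, 58.4 and 66.3 after QA, and its receptor Egfr and the partner receptor Erbb2 rose by 0.34 ± 0.07 and 1.21 ± 0.10 on the log2 scale. Of 18 YAP and Wnt genes 13 rose and 1 fell, with a median of 0.86. The 1 that fell passed the filter through the vehicle mice alone and was untested whenever a vehicle mouse was left out. Tead1, the DNA-binding partner of YAP, rose from 3.69 ± 0.344 to 11.1 ± 1.62 FPKM and the target Cyr61 from 12.7 ± 0.876 to 35.3 ± 5.38. Ctgf, another YAP target, was not called, at 8.49, 27.3, 9.68 and 5.01 FPKM in the QA mice and 15.4, 8.05, 4.51 and 8.35 in the vehicle mice, with wide overlap.

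Trophic factors split. Of 22 tested, 12 rose and 5 fell (3 with sex as a covariate). Gdnf, a survival factor for dopaminergic neurons, fell from 2.59, 2.45, 2.27 and 2.31 FPKM to 0.551, 0.504, 0.532 and 0.582, and Vegfa, the vascular growth factor, from 19.6 ± 1.79 to 11.7 ± 1.20. Bdnf, a neurotrophin, rose from 0.457 ± 0.0567 to 1.37 ± 0.287 FPKM. Csf1, the growth factor of microglia, rose from 17.2, 15.1, 15.4 and 15.7 to 63.6, 59.9, 51.0 and 73.4 FPKM, beside a rise of the summed microglial markers in IP to 369%, 390%, 238% and 408% of the vehicle mean. Igf1 stood near the filter, at 0.572, 0.581, 0.507 and 0.559 FPKM after vehicle, which alone let it pass, and 0.435, 0.273, 0.297 and 0.302 after QA. It fell in IP by 0.64 ± 0.17 on the log2 scale and rose in input by 2.85 ± 0.15, a difference of -3.48 ± 0.22. The fall in IP was lost with sex as a covariate (adjusted p = 0.30).

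Markers of immune cells rose in IP together with chemokine and complement genes. All 18 microglial markers and 5 of 7 tested phagocyte markers were higher. The summed microglial markers stood at 44.1 FPKM on average after vehicle and 155 after QA in IP, against 1407 and 9145 in input. All 12 oligodendrocyte markers rose too. Their sum stood at 186%, 194%, 241% and 257% of the vehicle mean in IP, and at 149%, 158%, 171% and 172% in input. Of these 12 changes, 11 were more upward in IP than in input and 0 more downward, where 18.4% and 28.3% of all 15151 genes tested had such calls. Of 17 chemokines and cytokines 13 rose, each at least 2-fold, and 2 fell, with a median of 2.02. Ccl2, which attracts monocytes, went from 15.8, 10.7, 10.4 and 12.99 FPKM to 63.7, 71.4, 64.2 and 134, with QA replicate 4 the highest, and Cxcl10, an interferon-induced chemokine, from 37.0 ± 6.70 to 157 ± 59.6. Cx3cl1, the neuronal ligand of the microglial receptor Cx3cr1, fell by 1.78 ± 0.18 on the log2 scale. Of 11 complement genes 10 rose, 8 of them at least 2-fold, with a median of 1.95. C3, the central component, stood at 6.10, 6.45, 7.81 and 9.41 FPKM after vehicle and at 76.8, 75.3, 22.8 and 84.4 after QA, and C2 at 6.60, 8.08, 1.73 and 10.3 after QA, so that QA replicate 3 was the lowest in both, as it was for the microglial markers. The parts of microglial and oligodendrocyte RNA in the rises seen in IP were not tested.

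Genes for engulfing debris rose in both fractions, more in input than in IP. Of 13 phagocytosis receptors and ligands 10 rose and 2 fell, with a median of 0.51. Of the 13 changes, 11 were more downward in IP than in input and 2 more upward, against 28.3% and 18.4% of all genes tested. Megf10, an engulfment receptor of astrocytes, was at 19.8, 20.8, 20.5 and 19.95 FPKM after vehicle and at 37.4, 37.0, 36.1 and 37.6 after QA. Axl, a receptor for exposed phosphatidylserine, and its bridging ligand Pros1 rose by 1.52 ± 0.11 and 1.76 ± 0.07 on the log2 scale, Mertk, a relative of Axl, was not called in IP (adjusted p = 0.15; 0.050 without QA replicate 4 and 0.035 without vehicle replicate 2) and rose by 1.69 in input, and Mfge8, another bridging protein, fell by 0.58 ± 0.05. Of 18 lysosomal genes 17 rose, with a median of 0.92 in IP and 1.96 in input. Lamp1, a lysosomal membrane protein enriched in IP, went from 301, 311, 289 and 288 FPKM to 512, 585, 626 and 607, and the protease Ctsd rose by 1.23 ± 0.09 in IP against 2.82 in input.

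Antioxidant and metal-binding genes were mostly higher. Of 23 genes of oxidative stress and metals 17 rose and 5 fell (3 with sex as a covariate), with a median of 0.74. Prdx6, a peroxiredoxin of astrocytes, rose from 312.9, 356.5, 322 and 309 to 1144, 1115, 1306 and 1091 FPKM, and Hmox1, heme oxygenase 1, from 36.2 ± 7.06 to 106 ± 11.8, while the mitochondrial Sod2 fell by 0.57 ± 0.06 on the log2 scale. Of 17 heat shock and unfolded protein genes 8 rose (4 with sex as a covariate) and 5 fell. Cryab, a small heat shock protein, rose by 1.67 ± 0.14, while Herpud1, of the endoplasmic reticulum, and Asns, asparagine synthetase, fell by 0.75 ± 0.05 and 1.57 ± 0.10. Of 20 injury and early transcription factors 14 rose and 4 fell. Fosl1 and Maff, AP-1 family members enriched in IP, rose by 1.502 ± 0.22 and 1.75 ± 0.12, whereas Egr1 and Egr2, activity-regulated factors, fell by 1.55 ± 0.19 and 2.41 ± 0.14.

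**Figure D4:**
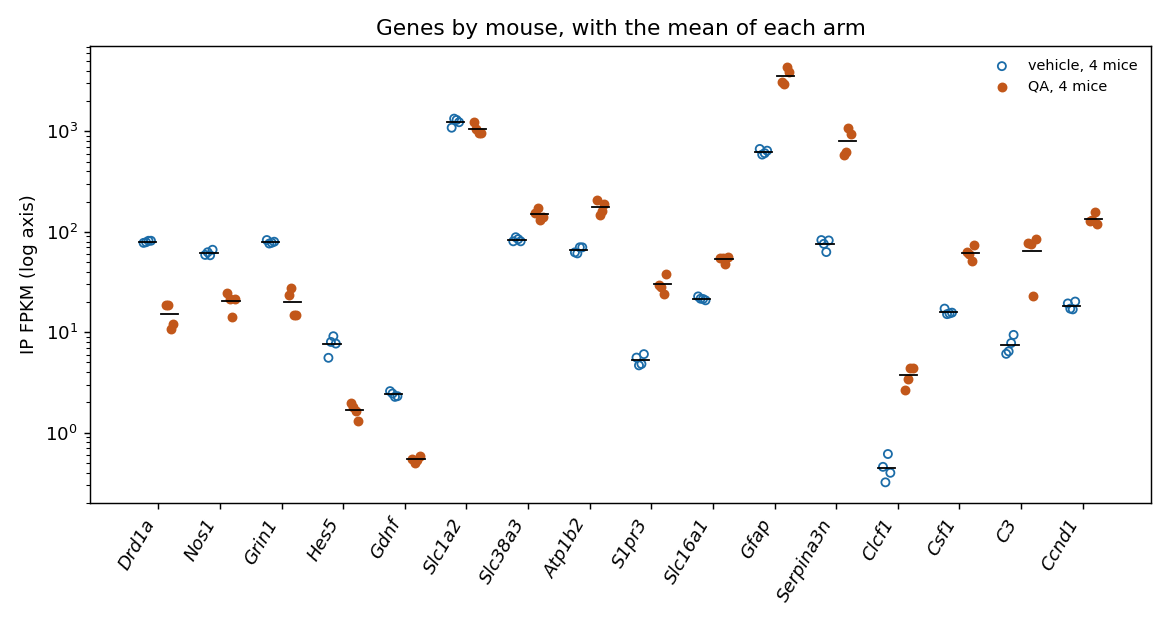
IP FPKM of 16 genes in each mouse, on a log axis, for 4 vehicle mice (open circles) and 4 QA mice (filled circles), with a bar at each arm's mean. Slc1a2 overlaps between the arms, Drd1a, Nos1, Grin1, Hes5 and Gdnf are lower in every QA mouse, and the other 10 genes are higher in every QA mouse, with C3 lowest in QA replicate 3.

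Transcription factors of astrocyte identity were mostly higher, 13 of 20, with 4 lower (2 with sex as a covariate) and a median of 0.39. Sox9, which specifies astrocytes, was at 27.0, 27.3, 28.5 and 28.9 FPKM after vehicle and at 78.2, 59.4, 56.6 and 72.0 after QA, and Nfia and Nfix, nuclear factor I genes of gliogenesis, rose from 9.94 ± 0.898 to 19.6 ± 2.29 and from 15.3 ± 1.38 to 36.9 ± 2.48. Meis2, a regional factor of the striatum depleted by the pull-down, fell by 1.10 ± 0.07 on the log2 scale. Of 13 neural progenitor genes 9 rose and 2 fell (1 with sex as a covariate or in female mice only), and Sox11, a factor of immature neurons, was not called (adjusted p = 0.55). Of 14 cell cycle genes 13 were called higher, 3 of which, Mki67 among them, passed the filter through the QA mice alone, and 1 was called lower in female mice only. Ccnd1, cyclin D1, went from 19.4, 17.2, 16.9 and 20.2 to 128, 131, 157 and 121 FPKM, and Mki67, expressed in dividing cells, stayed low at 0.164, 0.155, 0.176 and 0.376 against 1.15, 1.19, 1.10 and 1.90 FPKM. The input mean of Mki67 went from 0.466 to 3.76 FPKM.

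The response was set beside that of the other injury in the series, lipopolysaccharide (LPS) given intraperitoneally at 5 mg/kg 24 h before extraction, with 4 treated and 4 vehicle mice of its own that carried the same vector. By Xist and Y-linked genes those 8 mice were all male. The change after QA was more upward than that after LPS for 3811 of 14256 genes tested (26.7%) and more downward for 4406 (30.9%). Without scaling beyond FPKM these counts were 4793 and 3341, the median of all genes moving from -0.02 to 0.14. Of the 6 genes of the IP-enriched class that lay highest for QA, Fabp7, a fatty acid binding protein of radial glia, rose from 33.1, 27.8, 32.6 and 35.1 to 142, 131, 177 and 134 FPKM after QA and fell by 1.26 ± 0.37 on the log2 scale after LPS, a difference of 3.42 ± 0.41 (SE, adjusted p = 7.8e-06). Mob3b, a kinase activator-like protein, also moved oppositely, by 1.66 ± 0.11 and -0.97 ± 0.24, and Cybrd1, a ferric reductase, rose by 2.91 ± 0.16 after QA against 0.31 ± 0.18 after LPS. The genes that lay highest for LPS were Angptl4, Lcn2, Tnfaip2, Ptx3, Rsad2 and Ccl2. For Ccl2 the difference was lost without each of QA replicates 1 to 3 and vehicle replicates 1, 2 and 4 (adjusted p from 0.051 to 0.063). Ptx3, a soluble pattern recognition protein, rose by 1.55 ± 0.21 after QA and by 5.17 ± 0.79 after LPS, and Rsad2, an interferon-induced antiviral protein, by 0.89 ± 0.18 and 4.07 ± 1.03. The QA calls of Rsad2 and Angptl4 were lost with sex as a covariate.

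Several lists differed between the injuries. Glycogen genes were more upward after QA for 6 of 10 and more downward for 3. Ppp1r3c fell by 1.31 ± 0.34 on the log2 scale after LPS, a difference of 1.96 ± 0.36 (adjusted p = 3.4e-04), and Pygb, the brain glycogen phosphorylase, rose by 0.36 ± 0.06 after QA and fell by 0.31 ± 0.08 after LPS. Transcription factors of astrocyte identity were more upward after QA for 15 of 20 and more downward for 2, and lysosomal genes for 14 and 1 of 18. Of 20 injury and early transcription factors, 1 was more upward and 12 more downward after QA, the 12 including Maff and Atf3, the latter not called after QA (adjusted p = 0.18) and 2.73 ± 0.77 higher after LPS. Il6 fell by 1.31 ± 0.20 after QA and rose by 1.71 ± 0.44 after LPS. Hes5 and Nrarp fell after both, by 2.11 ± 0.16 and 2.42 ± 0.12 after QA and by 4.26 ± 0.67 and 3.66 ± 0.81 after LPS. The arms differed in route and time as well as agent, 2 weeks after an intrastriatal injection and 24 h after an intraperitoneal one, so that these cannot be told apart.

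**Figure D5:**
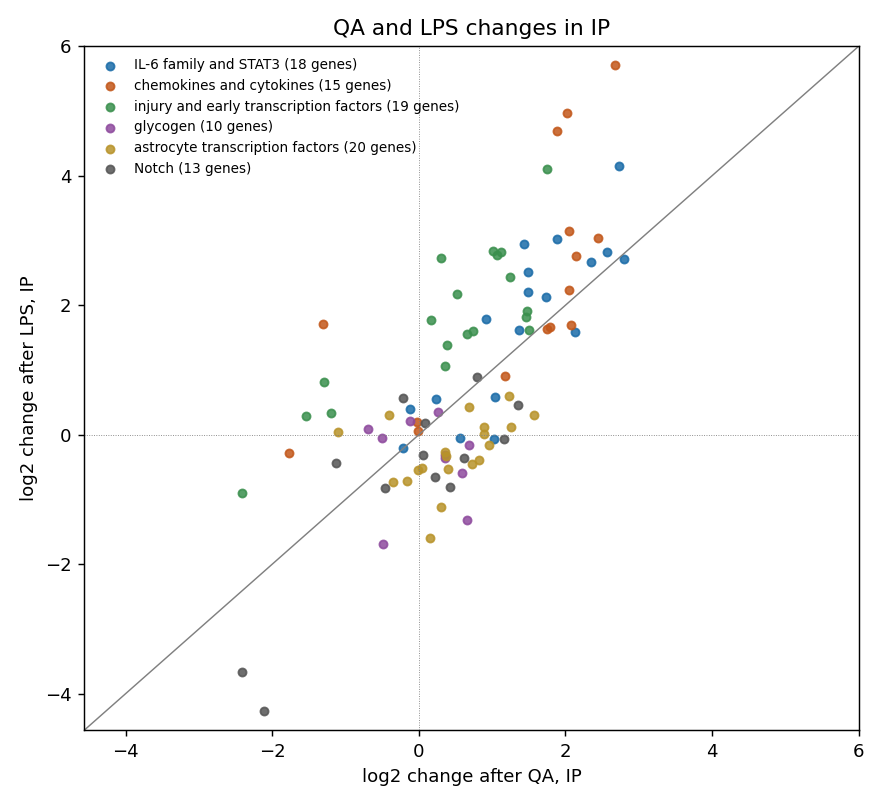
Log2 change after QA (horizontal) against that after LPS (vertical) in IP for the members of 6 lists that were tested in both, one point per gene, with the line of equal change. Of the chemokine and cytokine genes 11 of 15 lie above the line, as do all 19 injury and early transcription factors plotted, while 18 of 20 astrocyte transcription factors and 6 of 10 glycogen genes lie below it.

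Against the lysate of the same mice, the change after QA was more upward in IP for 2789 of 15151 genes tested (18.4%) and more downward for 4282 (28.3%). Without scaling beyond FPKM the counts were 1729 and 5465, and with scaling factors found over both fractions together they were 1873 and 5324. Among IP-enriched genes the largest shifts towards IP were those of Hbegf, Rasl11a, Ppp1r32, Igfbp2, Ltbp3 and Clip3. Ltbp3, which stores latent TGF-beta in the matrix, rose from 4.16, 3.71, 4.56 and 4.69 to 13.8, 10.4, 11.5 and 15.9 FPKM in IP, or 1.55 ± 0.13 on the log2 scale, against 0.78 ± 0.08 in input. The largest shifts away from IP were those of Cpne4, Tacr3, Apoe, Zic1, Tifa and Apoc1. Zic1, a transcription factor of the forebrain, read 14.9, 14.0, 13.2 and 14.5 FPKM after vehicle and 3.80, 3.68, 3.80 and 3.53 after QA in IP, while its input mean went from 5.72 to 4.99, and Apoc1, an apolipoprotein, rose by 1.36 ± 0.17 in IP against 2.94 ± 0.24 in input. The calls of Ppp1r32 and Tifa after QA in IP were lost with sex as a covariate.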

How the data were processed

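RNA-seq of the IP and input fractions was deposited as gene-level FPKM, 1 file per sample. The submitters' processing notes name STAR, HTSeq and mm10; how they were combined is not given in the sources used here. FPKM were scaled with TMM factors (trimming 30% of log ratios and 5% of levels), and log2(scaled FPKM + 0.1) was tested with limma 3.58.1 in R 4.3.3 (empirical Bayes, Benjamini-Hochberg adjustment, threshold 0.05) over genes reaching 0.5 FPKM in 4 or more libraries, so fold changes of low genes are understated. Printed FPKM are as the authors deposited them. Fold changes are on the log2 scale with that pseudocount.

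The FPKM gave whole reads in 100% of values within 0.05 reads, which set the depth: 55898469 to 68647854 reads in IP and 36322199 to 46007732 in input. The fit of IP against input kept the mouse as a block and took TMM factors within each fraction, since factors over both fractions together shifted unchanged genes in simulated data; that alternative was added after seeing the data. The test of QA against LPS used the 16 IP libraries of both experiments. The scripts were tested on simulated data.

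The 47 lists of genes, the members and the tests were chosen with earlier results of these data known. Named genes are the first 2 of each list, its 2 largest called rises and falls (2 FPKM or more in the higher arm, arms not overlapping), the 12 largest each way among called IP-enriched genes (5 FPKM or more, arms not overlapping, no sex-linked or provisional names), and the 6 largest each way of that class in both difference tests. Some named genes are not reported here. Replicate numbers did not pair the samples.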

Additional observations from a re-analysis of the deposited data

Results flagged for a closer look

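Of 348 sets of 4 values examined for a sample far from the others (Dixon's test at 95%), 26 were marked, against about 1 in 20 by chance. QA replicate 4 was the highest in 7 of them: Tuba1c at 7.12 FPKM, Stat3 at 95.8, Socs3 at 33.6, Ccl2 at 134, Mki67 at 1.90, Ptx3 at 11.3 and the phagocyte marker sum in IP at 82.4 FPKM. It was the lowest for Grm5 at 16.4 and Herpud1 at 20.7 FPKM. QA replicate 3 was the lowest for Slc16a1 at 48.4, Actn1 at 18, Osmr at 57.5 and C3 at 22.8 FPKM, and the highest for A2m at 88.6 FPKM. QA replicate 2 was the highest for Qprt at 1.23 FPKM. QA replicate 1 was the highest for Stmn2 at 91.7 FPKM and the lowest for the medium spiny neuron marker sum in input, at 2232 FPKM.

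Among vehicle mice, replicate 1 was the highest for Cntf at 0.576, Sod2 at 42.8 and Igfbp2 at 36.4 FPKM and the lowest for Sox11 at 3.32. Replicate 2 was the highest for Slc5a7 at 40.2, Tacr3 at 10.4 and Hhip at 18 FPKM. Replicate 3 was the lowest for Lcn2 at 3.43 FPKM, and replicate 4 the highest for Mki67 at 0.376 FPKM.

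Changes after QA differed between fractions and between injuries by a test of the difference itself. They were more upward in IP than in input for 2789 genes and more downward for 4282, and more upward than after LPS for 3811 genes and more downward for 4406.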

How the results depend on the processing

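The counts of genes called after QA in IP kept within 1.5 times of 5199 higher and 5046 lower under every alternative run, with 4744 to 4922 higher and 4718 to 4945 lower when single mice were left out. With a pseudocount of 1 in place of 0.1, the genes called higher and at least 2-fold numbered 829, against 1442; a larger pseudocount shrinks the change of low genes. Without scaling beyond FPKM, the genes more upward in IP than in input numbered 1729, against 2789; the cause was not tested. Of the 137 genes named here and called in IP, all 137 kept their call with RLE scaling, without scaling, with voom on recovered reads and at both other pseudocounts, 136 without the filter, 132 in female mice only and 128 with sex as a covariate, and none reversed. The effect in female mice only, and that with sex as a covariate, is QA replicate 1 alone against the vehicle mice. In the test of IP against input, the differences of Tead1 and A2m reversed with a pseudocount of 1, to 0.24 and 0.16 on the log2 scale, and 25 of 106 calls were lost without the mouse block.

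Replicate numbers are shared by the arms, but same-numbered mice did not deviate together (correlations of -0.14, -0.016, 0.018 and 0.051). With the replicate block, 4969 genes were called higher and 4798 lower, and of the named genes Apoe (adjusted p = 0.084) and Qprt (0.053) lost their call while Mertk (0.032) and Slc6a11 (0.036) gained one. At 55898469 reads or more per IP library, genes under 0.5 FPKM were left untested.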
